A study of Bubalus bubalis with 6 samples.

Results

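Solute carrier (SLC) genes encode membrane transporters, and 150 of the 8611 host genes in the blood circRNA table of Jianghuai buffalo (Bubalus bubalis) belonged to this group. They were taken as every host whose symbol was SLC followed by a digit or began with SLCO, and the reads of all their circRNAs were added together per host in each library. The 150 hosts gave 1006 of the 57308 circRNAs and 86147 reads. The rule used names alone and no measured value.

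Jugular venous blood was collected on day 25 after insemination from 3 pregnant cows (P-Buffalo, pregnant) and on the same schedule from 3 control cows (C-Buffalo, non-pregnant). All cows were aged 3 to 5 years, were reared in the same way, and had their oestrus synchronised; 20 cows were in the study and pregnancy was diagnosed by ultrasound on day 60. The pregnant group was inseminated and the control group received no treatment after oestrus, so an effect of pregnancy and an effect of insemination cannot be told apart. The 6 libraries held between 815851 and 1298753 back-splice reads. Non-pregnant library 2 stood apart, with a TMM scaling factor of 0.688 against 0.985 to 1.13 in the other libraries. Values that rest on it are given below with and without it where both were computed.

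A circRNA is a closed RNA loop in which an exon end is joined back to the start of the same or an earlier exon. The name ciRNA is meant for a loop from an excised intron. Some loops labelled ciRNA here span a listed exonic loop, such as ciRNA1875 of SLC22A4 and ciRNA7681 of SLC38A1. Intronic below thus means the deposited label and not a shown origin. The reads counted here cross the joint of a loop, so a host value measures loops of that gene and not its messenger RNA or its protein. Transporters of the SLC families carry amino acids, sugars, ions, metals, nucleotides and vitamins over the plasma membrane and the membranes of organelles. In blood, well known members are the anion exchanger band 3 of red cells, the iron importers of developing red cells, and the peptide and metal transporters of phagocytes. In whole blood, fewer cells of a type and less RNA per cell cannot be told apart.

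Loops of SLC hosts resembled those of other hosts in make-up. Exonic circRNAs numbered 825 and intronic ciRNAs 181, so ciRNAs were 18.0% of the SLC set and 14.3% of the circRNAs of all hosts. The exonic SLC circRNAs had a median of 3 exons and a median span of 5868 bp, against 3 exons and 5419 bp over all hosts. An SLC host had a median of 4 circRNAs (all hosts, 3), and 32 SLC hosts had a single circRNA (21.3% of them, against 27.3% of all hosts). The most circRNAs came from SLC4A7, a sodium bicarbonate cotransporter, with 42, followed by the organic anion transporter SLCO4C1 with 37, SLC25A40 with 32, SLC35D2 with 26 and SLC38A6 with 23. SLC37A3 also had 23. These counts and shares are descriptions without a test.

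Most loops were rare, in SLC hosts and in all hosts. Of the 1006 SLC circRNAs, 562 (55.9%, beside 56.3% over all hosts) were read in a single library, and 84 (8.35%, beside 8.12%) were read in all 6 libraries. These 84 held 73.5% of the SLC reads, where the like share over all hosts was 77.8%. Reads in pregnant libraries only were found for 376 SLC circRNAs (37.4%, beside 37.8% over all hosts), reads in non-pregnant libraries only for 251 (24.95%, beside 25.6%), and reads in both groups for 379 (37.7%, beside 36.6%). The number of SLC circRNAs detected was 314, 217 and 438 in non-pregnant libraries 1 to 3 and 386, 501 and 298 in pregnant libraries 1 to 3. Non-pregnant library 2 had the fewest and pregnant library 2, which had the highest total, had the most, so the groups overlapped. After thinning of every library to 815851 reads the numbers were 314, 210, 429, 383, 486 and 298 in the same order. A count of 0 in a library allows a level of up to 3 reads, which was 2.31 to 3.68 CPM (reads per 1000000 circRNA reads of the library, here without TMM scaling) and covers counting error only.

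The share of a library's circRNA reads that came from SLC hosts was 1.44%, 1.29% and 1.43% in the non-pregnant libraries and 1.15%, 1.43% and 1.62% in the pregnant libraries. The means were 1.39% ± 0.0826 and 1.40% ± 0.232 (SD, n = 3 each). The lowest and the highest share were both in pregnant libraries, so the groups overlapped, and the means differed by less than either SD.

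The mitochondrial carrier list gave the most SLC reads, with 31.4% of them from 26 hosts. Such carriers typically move metabolites over the inner mitochondrial membrane. SLC25A46, which held 10852 of the 27091 reads of the list, is instead an outer membrane protein. The share of the list within a library ran from 25.5% in pregnant library 1 to 36.0% in pregnant library 3. Bicarbonate, proton, sodium, chloride and sulfate exchangers followed with 15.8% from 25 hosts, and monocarboxylate, organic ion and drug transporters gave 10.6% from 14 hosts. Nucleoside and nucleotide-sugar transporters gave 9.62% from 14 hosts, amino acid transporters 9.22% from 24 hosts, and the vitamin, folate, choline, lipid and bile acid list 9.19% from 10 hosts. Amino acid transporters held 4.94% of the SLC reads of non-pregnant library 2 and between 8.43% and 11.2% in the other 5 libraries. Reads were concentrated in few members, since the 10 hosts with the most reads held 57.6% of the SLC reads and the median host had 80.5 reads over the 6 libraries.

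**Figure D1:**
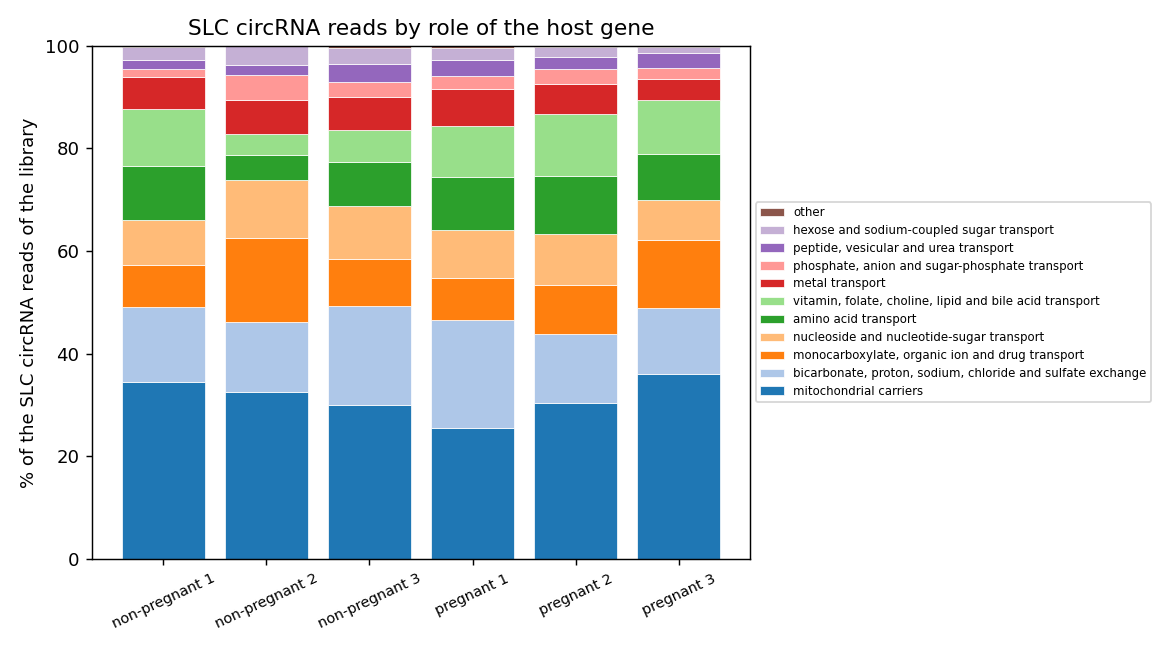
Share of the SLC circRNA reads of each library (y axis, %) by role of the host gene, as stacked bars for the 3 non-pregnant and 3 pregnant libraries (x axis). Mitochondrial carriers form the largest block in every library, from 25.5% to 36.0%.

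The host with the most reads was SLC25A46, an outer mitochondrial membrane protein of the carrier family that acts in mitochondrial shape. It had 2147, 1282 and 2818 reads in the non-pregnant libraries and 798, 1104 and 2703 reads in the pregnant libraries. In TMM-scaled CPM the controls had 2274, 2058 and 2240 and the pregnant libraries 719, 838 and 3021, so pregnant libraries 1 and 2 lay below every control and pregnant library 3 above every control. The log2 fold change, pregnant over non-pregnant, was -0.52 (SE 0.52; adjusted p = 0.981, edgeR quasi-likelihood test). Its reads came mainly from circRNA1174, a 4-exon loop (NC_037553.1, 912599 to 917255, minus strand), with 1678, 451 and 2053 against 361, 691 and 1719 reads. The longer 6-exon loop circRNA13717 ends at the same position, begins at 902780, and had 399, 829 and 701 against 403, 338 and 863 reads. The longer loop led in non-pregnant library 2 and pregnant library 1 and the shorter loop in the other 4 libraries.

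SLC25A40, a mitochondrial carrier for glutathione, had 1915, 2063 and 865 against 1181, 3266 and 1202 reads, and the groups overlapped. Its 4-exon circRNA10611 (NC_037552.1, 32123886 to 32129245) led in 5 libraries, with 1506, 487, 908, 2376 and 785 reads in non-pregnant libraries 2 and 3 and the pregnant libraries. In non-pregnant library 1 it had 731 reads and the 2-exon circRNA10612, which lies within it and shares its end, led with 1134. circRNA10612 had 1134, 484 and 343 against 216, 419 and 308 reads, so pregnant library 2 lay above non-pregnant library 3. Its log2 fold change was -1.65 (SE 0.74; adjusted p = 0.983, edgeR).

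SLC10A7, a bile acid carrier family member known for a part in calcium handling and glycosylation, had 1482, 463 and 759 against 879, 2046 and 1211 reads. Its 2-exon circRNA9785 held 69.8% and 90.7% of the host's reads in non-pregnant libraries 1 and 2, 71.0% to 82.7% in the pregnant libraries, and 30.3% in non-pregnant library 3, where circRNA9788 led. SLCO4C1 had 575, 1911 and 914 against 380, 696 and 1142 reads, and non-pregnant library 2 was the highest. Its log2 fold change of -1.04 became 0.11 without non-pregnant library 2. SLC38A6, of the neutral amino acid transporter family, had 915, 73 and 527 against 320, 964 and 610 reads, and here non-pregnant library 2 was the lowest. Its leading loop was in some libraries an intronic one, ciRNA759 (630, 24, 259, 61, 491 and 193 reads from non-pregnant library 1 to pregnant library 3).

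SLC4A7 had 133, 731 and 713 against 930, 410 and 489 reads, and its circRNA4909, of 6 exons, held 54.2% to 64.5% of them in every library. SLC35D2, a nucleotide-sugar transporter of the Golgi, had 534, 442 and 676 against 391, 894 and 378 reads. SLC37A3, a lysosomal transporter, had 162, 567 and 371 against 265, 403 and 195 reads. SLC15A4, the endolysosomal histidine and peptide transporter of immune cells, had 154, 221 and 508 against 319, 335 and 325 reads. SLC35B3, which brings the sulfate donor PAPS into the Golgi, had 121, 766 and 238 against 252, 331 and 140 reads. The groups overlapped for each of these 5 hosts, and non-pregnant library 2 was the highest of the 6 in CPM for all of them except SLC15A4.

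**Figure D2:**
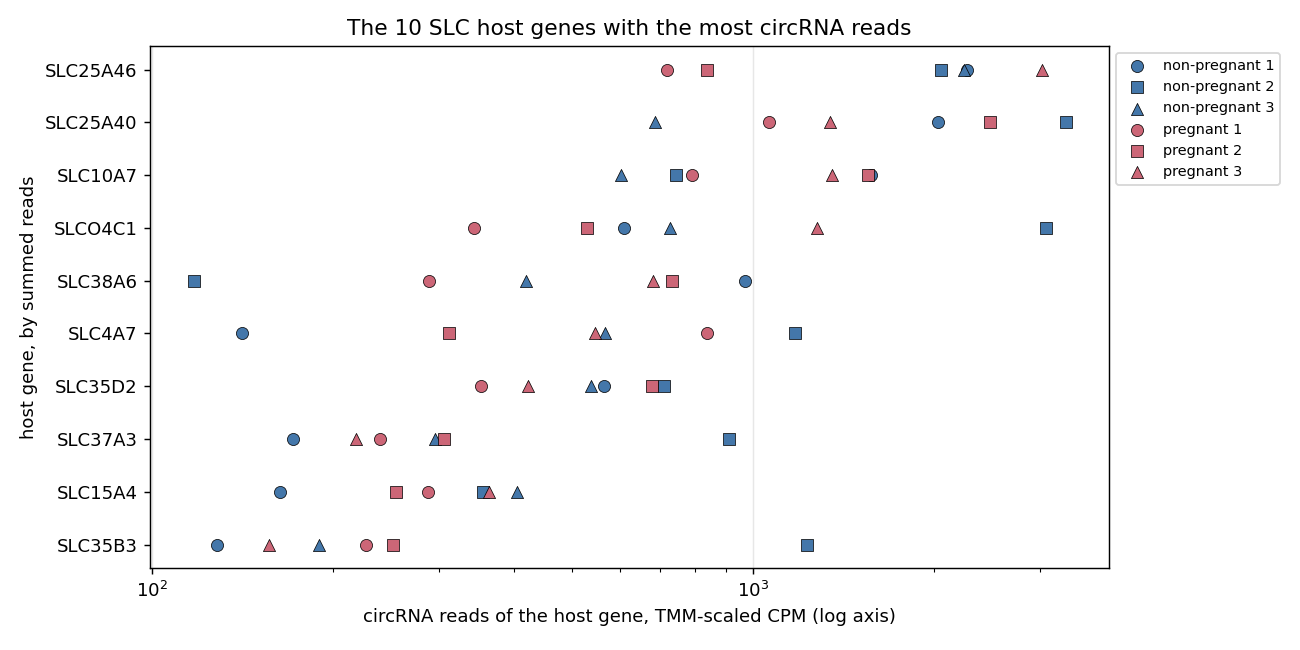
TMM-scaled CPM (log x axis) of the 10 SLC hosts with the most reads (y axis), 1 point per library, blue for non-pregnant and red for pregnant, with the shape giving the library number. The groups overlap for every host, and the square of non-pregnant library 2 lies at an end of the range for SLC25A40, SLCO4C1, SLC38A6, SLC4A7, SLC35D2, SLC37A3 and SLC35B3.

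The spread within a host was wide. Over the 65 tested hosts read in all 6 libraries, the highest library exceeded the lowest by a median of 8.27-fold in TMM-scaled CPM, and by 2.56-fold when non-pregnant library 2 was left out. That library was the lowest of the 6 for 44 of the 80 tested SLC hosts (55.0%, against 44.2% of all tested hosts) and the highest for 17 (21.3%, against 28.9%). The steadiest host was SLC35F5, with 234, 114 and 229 reads in non-pregnant and 250, 247 and 257 reads in pregnant libraries, a span of 1.58-fold in CPM.

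To assess the difference between P-Buffalo and C-Buffalo, all hosts were tested together and the SLC rows were read from that fit. After removal of hosts with few reads (filterByExpr), 80 of the 150 SLC hosts, holding 98.2% of the SLC reads, were tested. None of the 80 passed an adjusted p of 0.05 with a log2 fold change of 1 or more in size (edgeR quasi-likelihood test; lowest adjusted p 0.844), and none of all 4137 hosts did (background 0.0%). DESeq2, edgeR's exact test and limma called no SLC host either. At an unadjusted p of 0.05 with the same fold, 4 SLC hosts passed with edgeR (2 higher and 2 lower in pregnancy), DESeq2 gave 5, edgeR's exact test 4 and limma 5. The 4 hosts are 5% of those tested, beside 5.49% of all hosts. In either direction the SLC share was 2 of 80, beside 0.967% of all hosts for higher and 4.52% for lower. The median log2 fold change was 0.12 for the SLC hosts and 0.012 for all hosts. Without non-pregnant library 2 it was -0.071 for the SLC hosts and 0.029 for all hosts. Of the 80 hosts 45 lay above 0 (56.3%, beside 50.5% of all hosts) and 35 below. Without non-pregnant library 2 the SLC share above 0 was 47.9%, and the like share over all hosts was not computed. Leaving out non-pregnant library 1 or 3 raised the number at the unadjusted threshold to 9 of 91 (9.89%, beside 9.95% of all hosts) or 11 of 86 (12.8%, beside 11.2%).

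Data were simulated in a single run with the library sizes and the fitted spread of each host. An adjusted p of 0.05 recovered 0% of hosts changed 2-fold, 20.3% of those changed 4-fold and 57.7% of those changed 8-fold. These shares cover changed hosts that passed the count filter again. Hosts were drawn independently, so the deviation of non-pregnant library 2 over many hosts was not reproduced. In this simulated setting a 2-fold change was not detectable. Of the other 70 SLC hosts, the highest had 107 reads over the 6 libraries. Reads came from pregnant libraries only in 22 of the 150 hosts and from non-pregnant libraries only in 13, and 34 hosts had under 10 reads in all.

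For 8 of the 80 tested hosts (10%, beside 11.5% of all hosts) the 3 pregnant libraries lay entirely on one side of the 3 non-pregnant libraries in CPM. The pregnant libraries were above in 6 (all hosts, 7.06%) and below in 2 (all hosts, 4.47%). The values below describe these 8 hosts, of which none passed the adjusted test. With 3 libraries a group the smallest p of an exact two-sided permutation test is 0.1.

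Iron import into mitochondria is the role of SLC25A37 (mitoferrin-1), which supplies haem synthesis in developing red cells. It had 4, 0 and 0 reads in the non-pregnant libraries and 18, 64 and 21 reads in the pregnant libraries. The mean was 1.41 ± 2.45 CPM against 29.4 ± 17.0 CPM (SD, n = 3 each), the log2 fold change 4.24 (SE 1.59), the unadjusted p 0.0158 and the adjusted p 0.844 (edgeR). Only the pregnant libraries had enough reads of SLC25A37 for the count filter. It was thus tested because it was high in pregnancy, and its fold change and p-values are no separate support for a difference. The 4 reads of non-pregnant library 1 were all from ciRNA1261, an intronic loop upstream, and every exonic loop of the gene was read in pregnant libraries only. The largest was a 2-exon loop listed under 2 names with starts 1 bp apart, circRNA39521 (NC_037547.1, 133305026 to 133307495; 42 and 21 reads in pregnant libraries 2 and 3) and circRNA37277 (12 reads in pregnant library 1). Together they had 0 reads in each non-pregnant library and 12, 42 and 21 in the pregnant libraries (adjusted p = 0.830, edgeR). Their sum, too, passed the count filter through the pregnant libraries alone. The adding of these names was chosen after their values were seen. The second mitoferrin, SLC25A28, was too sparse to test and is likewise named after its values were seen. It had 0 reads in each non-pregnant library and 35, 0 and 12 in the pregnant libraries.

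Values of the other hosts on the red cell transporter list did not run the same way in every library. The list had 12 hosts with a circRNA, SLC25A37 among them. Of these, 3 were tested (SLC25A37, SLC4A1 and SLC11A2), 3 lay above 0, none passed, and the median log2 fold change was 0.76. Since SLC25A37 was tested because it was high in pregnancy, this count and median are no separate support for a difference. SLC4A1 (band 3), the anion exchanger of the red cell membrane, had 156, 9 and 157 against 121, 172 and 250 reads, and its log2 fold change of 0.76 was 0.27 without non-pregnant library 2. SLC11A2 (DMT1), which takes iron out of the endosome, had 228, 39 and 240 against 159, 343 and 143 reads, and its value of 0.19 became -0.19 without that library. The 9 untested hosts were sparse and mixed in direction, and all are given here. SLC7A5, an amino acid exchanger, had 5, 0 and 16 against 0, 0 and 0 reads, and the choline transporter SLC44A1 had 8, 0 and 14 against 2, 13 and 1. SLC25A39, a mitochondrial carrier, had 0, 0 and 0 against 0, 0 and 7 reads, and the glucose transporter SLC2A1 had 0, 0 and 2 against 0, 0 and 6. SLC3A2 had 2, 0 and 3 against 5, 45 and 4 reads, and SLC25A38 had 11, 2 and 9 against 9, 12 and 0. SLC6A9 had 3, 1 and 1 against 0, 10 and 0 reads. SLC43A1 had 0, 0 and 0 against 0, 9 and 0 reads, and SLC16A1 had 0, 0 and 0 against 0, 4 and 0. The erythroid marker genes, of which 9 of 11 had circRNAs and GYPC and KLF1 were at 0, summed to 3337, 5463 and 1935 TMM-scaled CPM in the non-pregnant and 3994, 4663 and 2684 in the pregnant libraries. The groups overlapped and the highest sum was in non-pregnant library 2. EPB41 had the most reads of these markers in every library (1317, 1723 and 1622 against 2525, 2798 and 1272). Single markers differed from each other. XPO7 had 34, 373 and 6 against 110, 202 and 47 reads, and RHAG had 15, 0 and 13 against 17, 184 and 64. The sum is thus mostly a measure of a few genes. The part of the erythroid markers in the values of SLC25A37 was not tested.

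SLC4A5, a sodium bicarbonate cotransporter, had 5, 0 and 0 reads in non-pregnant and 33, 25 and 18 reads in pregnant libraries. The log2 fold change was 3.59 (SE 1.63), with an unadjusted p of 0.0406 and an adjusted p of 0.862 (edgeR). Its 2-exon circRNA31408 (NC_037556.1, 10291618 to 10292713) had no read in the non-pregnant group and 25, 18 and 13 reads in the pregnant libraries. Against a floor of 3 reads over the non-pregnant group this is at least 18.1-fold higher, and the adjusted p was 0.983 (edgeR). Both SLC4A5 and circRNA31408 passed the count filter through the pregnant libraries alone. Their fold changes and p-values are thus no separate support for a difference. The 5 reads of non-pregnant library 1 were from another loop, circRNA555, which also had 5 reads in pregnant library 3.

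Amino acid transporters gave 2 of the hosts with higher values. SLC38A1, a sodium-coupled glutamine transporter, had 36, 30 and 126 against 235, 170 and 159 reads. Its means were 62.1 ± 33.3 and 173 ± 41.6 CPM, the log2 fold change was 1.47 (SE 0.77), and it stayed at 1.32 without non-pregnant library 2. Its 4-exon circRNA3454 had 28, 15 and 68 against 158, 89 and 123 reads. SLC36A4, of the proton-assisted amino acid transporter family, had 11, 3 and 28 against 48, 30 and 30 reads, from 13 loops of which no single loop was read in all 6 libraries. Of the 24 amino acid transporter hosts, 11 were tested, 7 lay above 0 and 4 below, and none passed. SLC7A7, the light chain of a cationic amino acid exchanger, had 112, 207 and 173 against 215, 191 and 110 reads.

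Organic ion transporters also gave 2 such hosts. SLC22A4 (OCTN1), a carrier of ergothioneine, had 246, 39 and 222 against 328, 504 and 327 reads, with means of 167 ± 99.3 and 348 ± 46.1 CPM. The log2 fold change of 1.06 (SE 0.63) was 0.68 without non-pregnant library 2, which was the lowest library. Its exonic circRNA1527 (96, 17 and 103 against 236, 212 and 128 reads) and its ciRNA1875, labelled intronic (14, 0 and 25 against 41, 97 and 73 reads), each separated the groups. The span of ciRNA1875 (89201062 to 89205901) takes in the 2-exon circRNA1524 (89201656 to 89205901). Its label therefore does not show that it is an excised intron. SLC22A23 had 0, 2 and 14 against 18, 40 and 26 reads. In this list 9 of 14 hosts were tested, 7 lay above 0 and 2 below, and none passed.

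The 2 hosts with lower values in pregnancy both had their highest level in non-pregnant library 2. SLC2A9, a urate and hexose transporter, had 120, 412 and 94 reads in non-pregnant and 82, 98 and 6 reads in pregnant libraries. The log2 fold change was -2.47 (SE 0.94; unadjusted p = 0.0172, adjusted p = 0.844, edgeR), and it was -0.94 without non-pregnant library 2. In that library 216 of the 412 reads were from circRNA6923 and 191 from circRNA6922, loops with a shared end at 12445584 on NC_037551.1. SLC30A7, a zinc transporter of the Golgi, had 274, 511 and 294 against 248, 205 and 107 reads. The log2 fold change was -1.43 (SE 0.63; unadjusted p = 0.0354, adjusted p = 0.848, edgeR), and -0.64 without non-pregnant library 2.

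For SLC30A7 the host total and its loops differed. In non-pregnant library 2 the 3-exon circRNA1926 had 446 reads, against 11 to 80 reads in the other libraries. The 2-exon circRNA1927, which shares its end (NC_037550.1, 42175304), had 227, 59 and 234 against 91, 155 and 68 reads. In CPM these were 213, 136 and 167 against 74.3, 109 and 66.8, so all 3 pregnant libraries were below all 3 controls, and the log2 fold change was -1.04 (SE 0.78; adjusted p = 0.983, edgeR), or -1.20 without non-pregnant library 2.

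**Figure D3:**
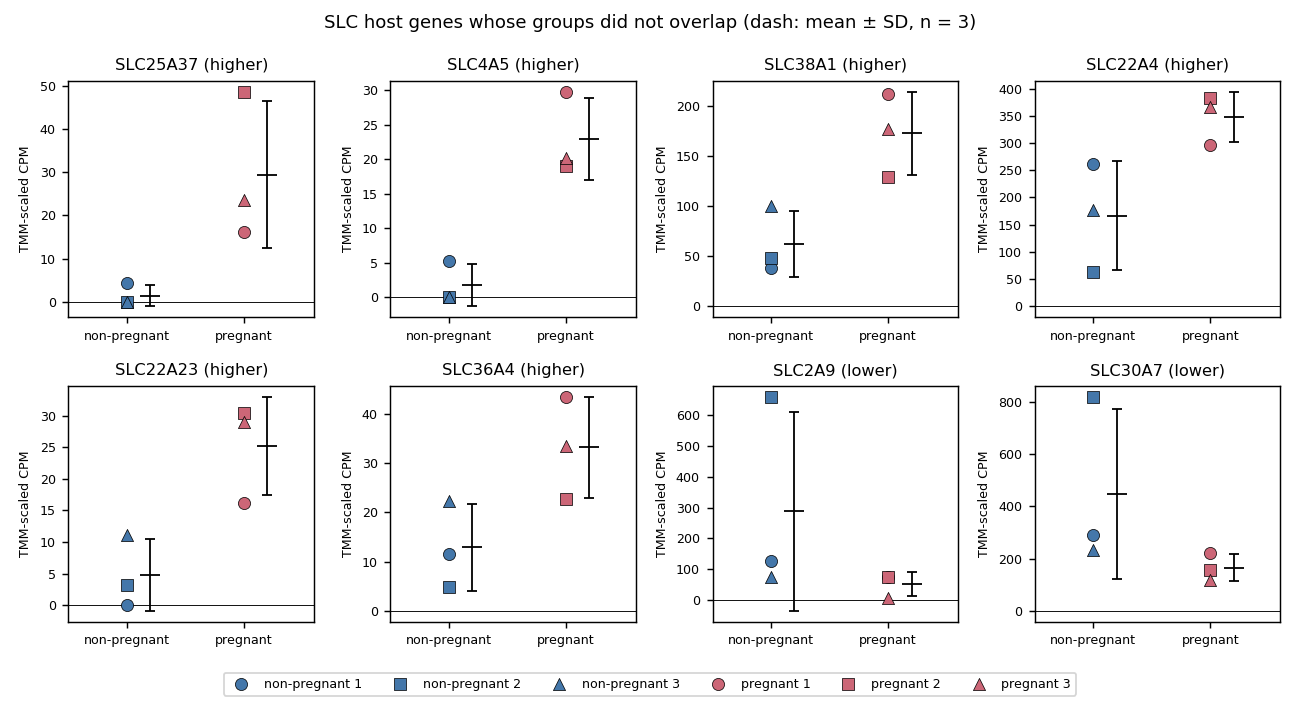
TMM-scaled CPM (y axis, linear) of the 8 SLC hosts whose groups did not overlap, 1 point per library, with the group mean ± SD (n = 3) as a dash beside the points. SLC25A37 and SLC4A5 are at or near 0 in the non-pregnant libraries, and the blue square of non-pregnant library 2 lies far above the other points for SLC2A9 and SLC30A7.

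**Figure D4:**
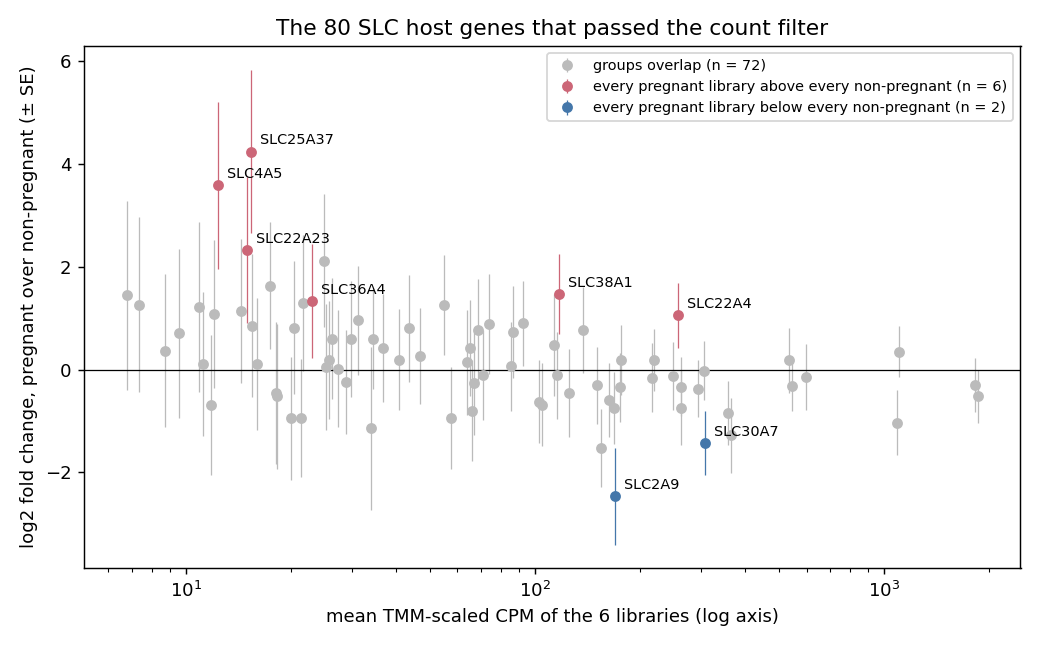
Log2 fold change, pregnant over non-pregnant (y axis, ± SE), against mean TMM-scaled CPM (log x axis) of the 80 tested SLC hosts, coloured by whether the groups overlapped. The largest values, those of SLC25A37 (4.24) and SLC4A5 (3.59), belong to hosts of low read number with wide errors.

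The groups overlapped for every other tested SLC host. Of the 25 ion exchanger hosts, 14 were tested, 5 above and 9 below 0, with SLC9A9, an endosomal sodium-proton exchanger, at 247, 190 and 534 against 276, 395 and 195 reads. Of the 17 metal transporter hosts 9 were tested, 5 above and 4 below 0. Of the 14 nucleoside and nucleotide-sugar transporter hosts 9 were tested, 4 above and 5 below 0. Of the 10 hosts on the vitamin, folate, choline, lipid and bile acid list 5 were tested, all with a fold change above 0 (median log2 1.14), and none passed. They included SLC23A2, a vitamin C transporter, with 60, 19 and 125 against 136, 114 and 138 reads. Non-pregnant library 2 was the lowest for SLC23A2 and had 0 reads of SLC46A3, SLC44A2 and SLC33A1, which were also among those tested. The median of this list was not computed without that library. The sugar list had SLC2A13, a myo-inositol transporter, with 161, 10 and 312 against 140, 134 and 80 reads. In the phosphate and anion list SLC17A5 (sialin), the lysosomal sialic acid exporter, had 23, 10 and 52 against 29, 65 and 44 reads. SLC18B1, a polyamine transporter of vesicles, had 90, 8 and 74 against 47, 125 and 78 reads. Its 7-exon circRNA222 had 4, 0 and 13 against 14, 27 and 38 reads. Of the 7 hosts on the myeloid list 4 were tested, 2 above and 2 below 0.

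Tested singly, 159 of the 1006 SLC circRNAs, holding 85.6% of the SLC reads, could be tested. None passed the adjusted threshold with edgeR (background 0.0% of 8261). In data simulated for single circRNAs, the adjusted threshold recovered 0% of those changed 2-fold, 4-fold or 8-fold. The lack of calls thus cannot tell an unchanged circRNA from one changed 8-fold, and no conclusion is drawn from it. At the unadjusted threshold 5 SLC circRNAs passed (3.14%, beside 3.89% of all circRNAs), 1 higher (all circRNAs, 1.43%) and 4 lower (2.46%). The number was 12, 9 and 22 without non-pregnant library 1, 2 and 3 (5.50%, 3.73% and 10.9% of SLC circRNAs, beside 7.43%, 4.34% and 9.14% of all circRNAs). DESeq2 gave 7, edgeR's exact test 9 and limma 2, none of which passed after adjustment. The groups did not overlap for 15 (9.43%, beside 12.0%), 11 higher (all circRNAs, 8.16%) and 4 lower (3.87%). Besides the loops above, the lower ones were circRNA6922 of SLC2A9 (29, 191 and 21 against 15, 12 and 0 reads), circRNA6221 of SLC7A7 (27, 191 and 47 against 26, 23 and 24 reads) and circRNA4670 of SLC9A9 (29, 58 and 36 against 23, 35 and 2 reads). Each had its highest value in non-pregnant library 2. Without that library the log2 fold changes went from -4.50 to -1.60, from -3.02 to -0.57 and from -2.01 to -0.81. Among the higher ones, ciRNA1334 of SLC25A26, which carries S-adenosylmethionine into mitochondria, had 4, 0 and 13 against 34, 32 and 12 reads.

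Which loop of a host led differed between libraries. All 66 SLC hosts read in every library had more than 1 circRNA, and 18 had the same leading circRNA in all 6 libraries, or 20 after loops with ends within 1 bp were added together. SLC24A3, a potassium-dependent sodium-calcium exchanger, had 96.1% to 100% of its reads in circRNA11937 (578, 45, 358, 148, 425 and 106 reads). Non-pregnant library 2 alone had another leading loop for 6 hosts, among them SLC9A9 and SLC30A7, beside 2 to 4 hosts for each other library taken alone. Of these 6, SLC6A6, SLC25A30 and SLC9A8 had only 1, 4 and 8 reads in non-pregnant library 2, so few reads set the leader there. Loop names read in that library only numbered 32, and 5 of them had at least 40 reads, which no library-specific SLC loop of another library had. These were circRNA20154 of SLC30A9 (219 reads), ciRNA2506 of SLC9A9 (116), circRNA20000 of SLC35D2 (109), circRNA17585 of SLC9B2 (86) and circRNA18547 of SLC25A40 (49). One of the 5, circRNA20000, was specific to the library by name alone, since circRNA22046, whose start lies 1 bp away, had 15, 8 and 24 reads in non-pregnant library 3 and pregnant libraries 2 and 3. With loops within 1 bp added together, 25 were read in non-pregnant library 2 only, and 4 of them had at least 40 reads.

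Some SLC loops were listed under 2 names. There were 93 pairs of circRNAs of the same host whose ends both lay within 1 bp, and they took in 179 SLC circRNAs. In the 81 exonic pairs the ends were identical and the starts differed by 1 bp. In none of the 323 cases of a pair read in a library were both members of an exonic pair read together. In the 12 intronic pairs both members were read together in 16 of 40 cases. Circular reads of circRNA10922 of SLC37A3 (NC_037552.1, start 103477853, end 103479482) numbered 94, 0 and 162 against 100, 0 and 83. Those of circRNA19518, with start 103477854, numbered 0, 260 and 0 against 0, 194 and 0, so it was read in exactly the libraries where the first was not. Added together they gave 94, 260 and 162 against 100, 194 and 83 reads.

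A second SLC37A3 pair had the same form, with circRNA18633 at 0, 196 and 55 against 65, 80 and 53 reads and circRNA12912 at 18 reads in non-pregnant library 1 alone. In SLC7A11, the cystine-glutamate exchanger, circRNA9748 had 113, 0 and 135 against 74, 127 and 0 reads and circRNA19355 had 4 reads in non-pregnant library 2. In 17 of the 81 exonic pairs one member was read in pregnant libraries only and the other in non-pregnant libraries only. Many of these 17 were read in only 1 library of each group, such as circRNA43103 and circRNA29850 of SLC25A13 (9 and 7 reads). The like share over all hosts was not computed, so nothing about pregnancy is drawn from this number. The pair of intronic loops of SLC4A1 behaved otherwise, since ciRNA124 (46, 4 and 53 against 33, 54 and 82 reads) and ciRNA125 (66, 5 and 64 against 32, 58 and 81 reads), which end 1 bp apart, were read together in every library. Reads of both names enter the host sums, so the host values above do not depend on which name was used.

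**Figure D5:**
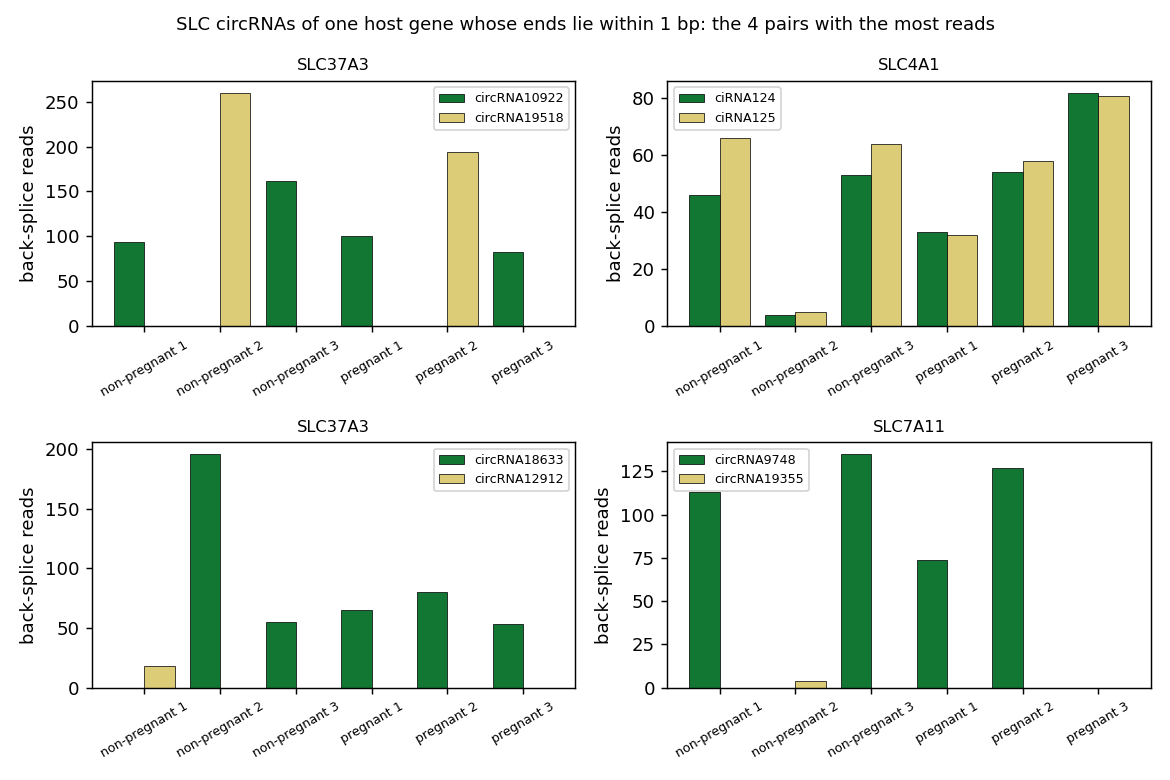
Back-splice reads (y axis) in each library (x axis) of the 4 SLC circRNA pairs with ends within 1 bp and the most reads, green for one member and yellow for the other. In the SLC37A3 and SLC7A11 pairs no library has reads of both members, and in the SLC4A1 pair all 6 libraries do.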

How the data were processed

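Circular RNA was sequenced from 6 jugular blood samples, 3 pregnant and 3 non-pregnant cows, each taken as 1 replicate. The authors deposited a table with back-splice read counts and SRPBM values (back-splice reads scaled to the mapped reads of the library, a depth-normalized signal) per circRNA and library. In the study's methods the RNA was depleted of ribosomal RNA and treated with RNase R, and reads were processed with Cutadapt, Bowtie2, Tophat2, Tophat-fusion, CIRCExplorer and CIRI on ASM312139v1. Per the labels of the submitters, the tools were StringTie, ChIPseeker, HOMER, fastp, HISAT2 and edgeR, with GRCh38.p10. The sources used here do not give which set made the table, nor whether starts count from 0 or 1. Coordinates are printed as deposited.

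Counts were summed per host gene, leaving out intergenic circRNAs, and fitted over all hosts, and separately over all circRNAs, with edgeR 4.0.16 (R 4.3.3): filterByExpr, TMM factors, the quasi-likelihood test and Benjamini-Hochberg adjustment over all features tested. The study's thresholds were kept, an adjusted p under 0.05 with a log2 fold change of 1 or more in size. edgeR took the place of the t-test of the study because the values are counts. With its t-test the study reported circRNAs that differed at these thresholds, whereas the main fit here called none of those tested. CPM values use TMM-scaled library totals, from host counts for hosts and from circRNA counts for circRNAs. DESeq2 1.42.0 and limma 3.58.1, on log2(SRPBM + 1) or log2(SRPBM + 0.1), were alternatives, as were other count filters, RLE factors, the totals that SRPBM implies, a replicate block and leaving out each library. The fits were tested on simulated data. Simulated sets held 2-, 4- and 8-fold changes.

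Named hosts were the 10 with the most reads, the 5 with the most circRNAs, up to 6 per direction whose groups did not overlap, and the 2 with the most reads in each role list; circRNAs were chosen likewise, with the 4 largest pairs within 1 bp. A few others are given as examples chosen after their values were seen (SLC35F5, SLC24A3, SLC25A28, SLC25A26, SLC25A39, SLC2A1, SLC7A5, SLC44A1, and the loops read in 1 library only). SLC3A2, SLC25A38, SLC6A9, SLC43A1 and SLC16A1 were added to complete the red cell list, also after their values were seen. The members and lists were chosen with earlier results of these data known. Role lists follow SLC family numbers; SLC9A3R1, SLC2A4RG and SLC4A1AP are no transporters and were kept apart. Symbols of 147 of the 150 hosts were in the RefSeq gene table of NDDB_SH_1. Nothing shows that reads of similar genes were kept apart, so values of close paralogs or overlapping genes are uncertain. Nothing states how the libraries relate beyond 1 cow each, so p-values measure the spread between these samples.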

Additional observations from a re-analysis of the deposited data

How the results depend on the processing

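No SLC host passed the adjusted threshold under any alternative tried. At the unadjusted threshold the main 4 became 1 with library totals implied by SRPBM, 10 with no filter, 2 with a mean count of at least 20, and 3 to 11 when a library was left out. Over all hosts the main 0 calls became 86 with no filter, 1 with DESeq2, 1 with limma on log2(SRPBM + 1), 1 with the replicate block and 0 to 2 with a library left out.

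For single circRNAs, the fit with no filter called 600 in all and 5 of SLC hosts, each read under its own name in non-pregnant library 2 only and given above (circRNA20000 has a partner within 1 bp that was read in 3 other libraries). The main 0 of all circRNAs became 39 with DESeq2, 26 with edgeR's exact test and 11 with limma on log2(SRPBM + 1), none of SLC hosts. SLC circRNAs at the unadjusted threshold, 5 in the main fit, were 1 with SRPBM totals, 28 with no filter, 0 with a mean count of at least 20, 9 with the exact test, 2 with either limma fit, 1 with the replicate block and 4 to 22 with a library left out. The labels do not say that the replicate numbers pair the cows. Same-numbered libraries correlated at -0.15, -0.070 and -0.018 in their deviations over hosts, which cannot settle how the cows were numbered. The block is therefore given only here. The replicate block left 3 SLC hosts at the unadjusted threshold.

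The scaling moved all hosts together: the median log2 fold change over all hosts was 0.012 in the main fit, -0.13 with RLE factors, 0.16 with SRPBM totals, 0.32 and 0.44 with limma at a pseudocount of 1 and 0.1, and 0.20 with the block. That of SLC hosts was 0.12, 0.080, 0.21, 0.43, 0.58 and 0.32 in that order, and the share of SLC hosts above 0 went from 56.3% to 73.8% with the pseudocount of 0.1. Without the SLC host with the most reads, the mean SLC share of reads was 1.18% in control libraries and 1.23% in those of pregnant cows.

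No value that changed sign was past the unadjusted or the adjusted threshold (lowest unadjusted p 0.112, edgeR), and circRNA10611 and circRNA18633 exceeded 1 in size after the change of sign. With SRPBM totals the log2 fold changes were SLC25A40 0.22, SLC4A7 0.26, SLC35D2 0.013, SLC15A4 0.16, SLC7A7 0.093, circRNA10611 0.62 and circRNA4909 0.33. With limma at 1 and 0.1 they were SLC25A40 0.11 and 0.11, SLC4A7 0.43 and 0.44, SLC15A4 0.29 and 0.30, SLC2A13 0.33 and 0.47, SLC7A7 0.025 and 0.023, circRNA10611 0.52 and 0.52, circRNA4909 0.51 and 0.53, ciRNA759 0.10 and 0.15, and circRNA18633 0.87 and 1.93. With the block they were SLC4A7 0.15, SLC15A4 0.057, SLC2A13 0.10, circRNA10611 0.071, circRNA4909 0.0096 and circRNA18633 0.66. With a mean count of at least 20 they were SLC15A4 0.065, circRNA10611 0.051 and circRNA4909 0.024.

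With a library left out, the ranges that crossed 0 were SLC25A40 -0.75 to 0.28, SLCO4C1 -1.76 to 0.11, SLC38A6 -0.28 to 1.10, SLC4A7 -0.64 to 0.68, SLC37A3 -1.25 to 0.13, SLC15A4 -0.33 to 0.21, SLC35B3 -1.76 to 0.42, SLC2A13 -0.97 to 0.18, SLC7A7 -0.62 to 0.28, SLC11A2 -0.19 to 0.58 and SLC18B1 -0.028 to 1.07. For circRNAs they were circRNA10611 -1.03 to 1.03, circRNA9785 -0.17 to 0.61, circRNA13717 -1.75 to 0.069, circRNA4909 -1.01 to 0.61, ciRNA759 -1.21 to 0.70, circRNA10922 -0.95 to 0.29, ciRNA125 -0.26 to 0.74, circRNA18633 -2.22 to 1.38 and circRNA9748 -1.17 to 0.15. The cause was not tested. The 8 hosts whose groups did not overlap kept their sign under every alternative that could be fitted, with SLC25A37 at 2.43 to 7.96 and SLC2A9 at -2.98 to -0.94. These hosts were picked because their groups were apart in the same counts. A change of sign was therefore hardly possible, and the kept signs are no separate support. With 3 cows a group and SLC loops mostly read in a single library, depth and number limit what could be seen.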
